A study of Homo sapiens with 27 samples.

Results

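IPI-9119, an inhibitor of the enzyme fatty acid synthase (FASN), was given for 6 days to LNCaP95 and LNCaP cells, and the measure described here is how far its effect at 500 nM on each gene differed between these lines. For a gene this difference, called the interaction, is the change from DMSO to 500 nM in LNCaP95 minus the same change in LNCaP, on the log2(normalised count + 1) scale. A positive interaction therefore means a more positive effect in LNCaP95. The test used 12 of the 27 libraries of the series, 3 in each of 4 groups. It covered 12058 of the 20987 genes in the table, those with a normalised count of 10 or more in at least 3 libraries of each line. The 4 groups were LNCaP95 with 500 nM IPI-9119, LNCaP95 with the vehicle DMSO, LNCaP with 500 nM IPI-9119 and LNCaP with DMSO. LNCaP is a human prostate cancer line from a lymph node metastasis and is labelled androgen sensitive. LNCaP95 was derived from LNCaP by culture without androgen and is labelled castration resistant. The labels name no other agent or genetic change in these groups. Each androgen status is represented by 1 line, so an effect of the status cannot be told apart from any other difference between the lines. Per the labels' protocols, the medium was not replaced during treatment, and RNA came from the cells together with what was pelleted from the medium.

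FASN builds palmitate, the first long fatty acid a cell makes, and is abundant in prostate cancer. Its gene, with those of sterol synthesis and of fatty acid desaturation, is switched on by the SREBP transcription factors when membranes run short of sterols or unsaturated lipids. Stress on the endoplasmic reticulum (ER), lack of amino acids and other insults raise translation of ATF4, a transcription factor that turns on genes for amino acid synthesis, amino acid import and tRNA charging. Genes of DNA replication and mitosis are expressed mainly in dividing cells, and androgens drive the prostate's own genes such as KLK3, which encodes prostate-specific antigen.

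Libraries held 15073809 to 25731706 reads in genes, and 1 read was worth 0.759 to 1.19 normalised counts. Nothing in the labels ties replicates to separate cultures, and the p-values therefore cover only the variation among these libraries, possibly technical. A library of LNCaP with DMSO, replicate 1, stood apart from replicates 2 and 3. Its mean log2 level over 30 mitosis genes was 10.05, against 8.64 and 8.45 in replicates 2 and 3, and over 23 glycolysis genes it was 12.27, against 11.40 and 11.44. LNCaP at 500 nM, replicate 1, was high for 20 cholesterol synthesis genes, at 12.05 against 11.46 and 11.47 in replicates 2 and 3. Where leaving one of them out changed a call or moved the count of a list by over 1.5 times, the value without it is given. The 9 luminal prostate markers, among them KRT8, KRT18 and HOXB13, were above 0 in all 4 groups. Of 6 basal markers the summed level stayed between 1.76 and 19.6 normalised counts in every library.

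The lines responded differently over a large share of the genes. The interaction passed an adjusted p of 0.05 in limma for 5003 of 12058 genes, or 41.5%. It was higher in LNCaP95 for 2584 genes (21.4%) and lower for 2419 (20.1%), so 51.6% of calls were higher. With libraries scaled to equal totals instead, 39.8% of 4973 calls were higher and the median interaction over all genes was -0.07, against 0.03 with the deposited scaling. At least a 2-fold difference accompanied the call in 1551 genes (12.9%), of which 744 were higher and 807 lower. Within lines, 500 nM changed 5681 genes (47.1%) in LNCaP95, with 3051 (25.3%) higher and 2630 (21.8%) lower. In LNCaP it changed 3392 genes (28.1%), with 1760 (14.6%) higher and 1632 (13.5%) lower.

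Most interactions came from genes called in 1 line. Among those higher in LNCaP95, 1275 genes rose in LNCaP95 with no call in LNCaP, and 491 fell in LNCaP with no call in LNCaP95. Among those lower in LNCaP95, 1279 fell in LNCaP95 with no call in LNCaP, and 467 rose in LNCaP with no call in LNCaP95. A further 978 genes (8.11%) were called in opposite directions, 565 of them higher in LNCaP95 and lower in LNCaP and 413 the reverse. Over the called genes the median size of the difference between lines was 0.45 on the log2 scale at 500 nM and 0.72 with DMSO. Over all genes tested it was 0.42 at 500 nM and 0.54 with DMSO.

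**Figure D1:**
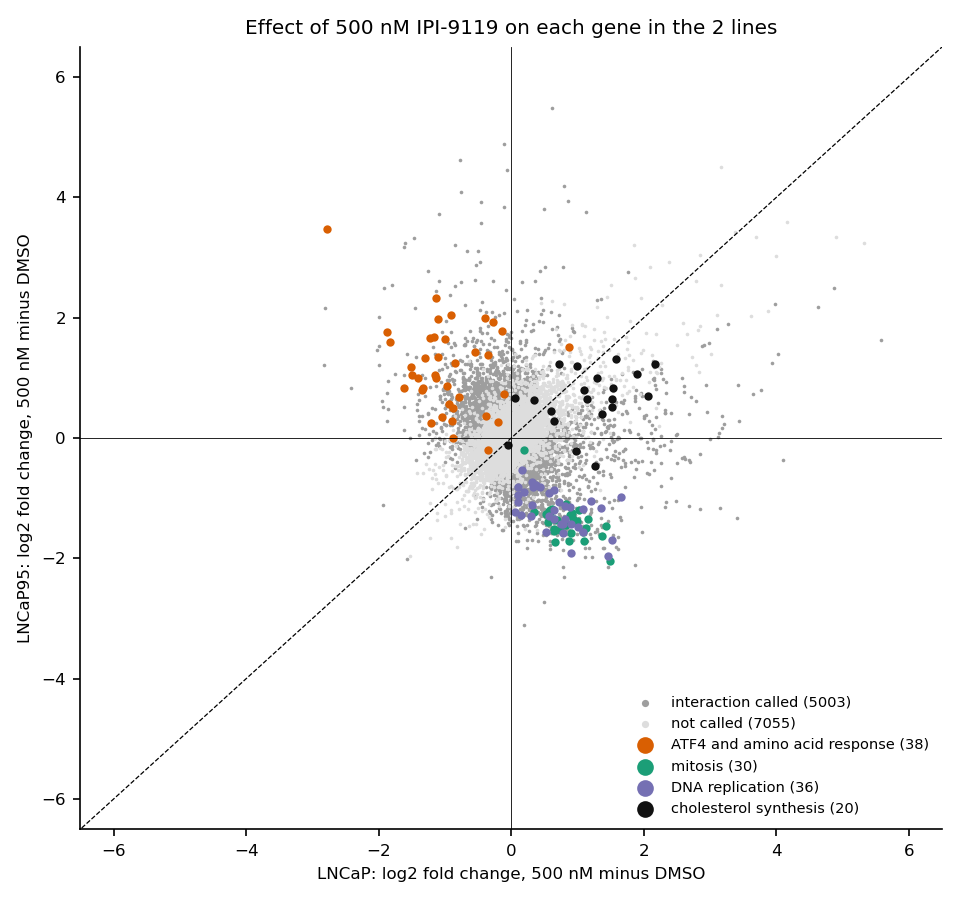
Each point is 1 of 12058 genes, with the log2 fold change of 500 nM over DMSO in LNCaP95 on the vertical axis and in LNCaP on the horizontal axis (means of 3 libraries per group). Genes of the ATF4 and amino acid response list (38) lie mainly above 0 in LNCaP95 and below 0 in LNCaP, genes of mitosis (30) and DNA replication (36) lie below 0 in LNCaP95 and mainly above 0 in LNCaP, and cholesterol synthesis genes (20) lie mainly above 0 in both lines.

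ATF4 and many of its targets were called in opposite directions in the lines. Of 38 tested genes of the ATF4 and amino acid response, 37 had a higher interaction and 0 a lower one, beside 21.4% and 20.1% over all genes. Their median interaction was 2.16 on the log2 scale, with median effects of 1.11 in LNCaP95 and -1.02 in LNCaP. In LNCaP95 34 of the 38 rose and 1 fell, in LNCaP 1 rose and 31 fell, and 28 were called in opposite directions. The median difference between the lines, LNCaP95 minus LNCaP, was 0.91 at 500 nM and -0.90 with DMSO. The member with no call was ALDH18A1, an enzyme of proline synthesis, which fell in both lines. ATF3, another stress-induced factor, rose in both lines.

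ATF4 itself had normalised counts of 18195, 16588 and 17572 in LNCaP95 at 500 nM and 9700.4, 8479 and 8053 in LNCaP95 with DMSO, and 7037, 10663 and 9196 in LNCaP at 500 nM and 17940.1, 20609 and 19498 in LNCaP with DMSO. All libraries at 500 nM were above all with DMSO in LNCaP95 and below them in LNCaP, a separation of groups seen in 59.6% of tested genes in LNCaP95 and 40.9% in LNCaP. Its interaction was 2.13 ± 0.18 (SE; adjusted p = 2.5e-06), from effects of 1.0 in LNCaP95 and -1.13 in LNCaP. ASNS encodes asparagine synthetase, a standard reporter of ATF4 activity. Its counts were 10248, 10937 and 10689.9 in LNCaP95 at 500 nM and 5355, 4189 and 4591 in LNCaP95 with DMSO, and 4261, 6252 and 6027 in LNCaP at 500 nM and 12165, 16645 and 18248 in LNCaP with DMSO. The treated LNCaP95 libraries lay below the untreated LNCaP libraries and above the treated LNCaP libraries, and the interaction was 2.69 ± 0.22 (adjusted p = 2.22e-06).

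CHAC1, which degrades glutathione, had counts of 1130.4, 950.1 and 912 in LNCaP95 at 500 nM and 427, 201 and 287 in LNCaP95 with DMSO, and 279, 554 and 482 in LNCaP at 500 nM and 1275, 1707 and 1717 in LNCaP with DMSO. Neither line's groups overlapped, and the interaction was 3.65 ± 0.37 (adjusted p = 9.29e-06). PCK2, the mitochondrial enzyme that makes phosphoenolpyruvate, had counts of 7613, 6603 and 6676 in LNCaP95 at 500 nM and 2904, 1979 and 2086 in LNCaP95 with DMSO, and 4483, 5863 and 5366 in LNCaP at 500 nM and 17592, 18522 and 19469 in LNCaP with DMSO. Its effects were 1.60 in LNCaP95 and -1.83 in LNCaP (interaction 3.43 ± 0.19, adjusted p = 1.74e-07). TRIB3, a pseudokinase that feeds back on ATF4, had counts of 6361, 5507 and 5406 in LNCaP95 at 500 nM and 2109, 1897 and 1487 in LNCaP95 with DMSO, and 3259, 3880.2 and 3607 in LNCaP at 500 nM and 7233, 8371 and 9689 in LNCaP with DMSO. The groups were apart in both lines, and the effects were 1.66 in LNCaP95 and -1.23 in LNCaP (interaction 2.89 ± 0.18, adjusted p = 3.65e-07). SLC7A11, the cystine importer, had counts of 4407, 3684 and 3629.8 in LNCaP95 at 500 nM and 1259, 861 and 879.7 in LNCaP95 with DMSO, and 607, 783 and 1132 in LNCaP at 500 nM and 1769, 1736 and 1724 in LNCaP with DMSO. Neither line showed overlap, and the effects were 1.98 in LNCaP95 and -1.10 in LNCaP (interaction 3.08 ± 0.26, adjusted p = 2.76e-06). In each of these genes the level with DMSO was higher in LNCaP than in LNCaP95.

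Other members differed in how much each line contributed. DDIT3, a pro-apoptotic partner of ATF4, had counts of 3724, 2990.4 and 3414 in LNCaP95 at 500 nM and 1184, 700.5 and 836 in LNCaP95 with DMSO, and 1139, 1469 and 1352 in LNCaP at 500 nM and 1366, 1761 and 1654 in LNCaP with DMSO. It rose by 1.92 in LNCaP95 and had an effect of -0.27 in LNCaP that did not pass the test (adjusted p = 0.236). SESN2, a leucine sensor upstream of mTORC1, had the same form, with counts of 4099, 2971 and 3303 in LNCaP95 at 500 nM and 1068, 726 and 826 in LNCaP95 with DMSO, and 937, 1281 and 1186 in LNCaP at 500 nM and 1383, 1499.8 and 1560.1 in LNCaP with DMSO. Its effects were 1.99 in LNCaP95 and -0.39 in LNCaP (adjusted p in LNCaP = 0.0641). SHMT2, a mitochondrial enzyme of one-carbon metabolism, had counts of 16497, 15759.8 and 16547 in LNCaP95 at 500 nM and 9754, 8177 and 8941 in LNCaP95 with DMSO, and 8266, 9773 and 8976 in LNCaP at 500 nM and 17592, 17309.7 and 17744 in LNCaP with DMSO. Treated and untreated libraries were apart in each line, and the effects were 0.86 in LNCaP95 and -0.97 in LNCaP (interaction 1.83 ± 0.12, adjusted p = 4.49e-07). NUPR1, a stress-induced chromatin protein, had an interaction of 2.10 ± 0.13 (adjusted p = 2.03e-07). Serine and glycine synthesis genes were in the same group, with interactions of 1.47 for PHGDH, 2.18 for PSAT1 and 1.39 for PSPH. FGF21, a secreted stress hormone, averaged 22.3 normalised counts in LNCaP95 at 500 nM and 1.39 in LNCaP95 with DMSO, and 3.46 in LNCaP at 500 nM and 25.4 in LNCaP with DMSO, levels of a few reads from which no fold is given.

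The ATF4 composite element, with the letters TGATGNAA, was searched for on both strands of the RefSeq promoter windows, which run from 250 bases before to 50 bases after each annotated start (GRCh38.p14). It was present in 11 of 31 genes of the list that have a window (35.5%), in 1217 of all 27305 genes with a window (4.46%) and in 252 of 9151 tested genes (2.75%). It was in 0 of 24 mitosis genes and 0 of 31 DNA replication genes. Of tested genes with a window, 4.36% of those called higher and 2.14% of those called lower held it. The list was chosen by hand to hold ATF4 targets, so its own share is no evidence about these data. Windows of ASNS and CHAC1 are shown because these genes carry the reversal and hold a match, here in capitals, within the 250 bases before a start. ASNS lies on the minus strand at chr7:97872409-97872658, with the match beginning 68 bases before the start. CHAC1 lies on the plus strand at chr15:40953221-40953470, with a match on the opposite strand beginning 209 bases before the start.
ASNS: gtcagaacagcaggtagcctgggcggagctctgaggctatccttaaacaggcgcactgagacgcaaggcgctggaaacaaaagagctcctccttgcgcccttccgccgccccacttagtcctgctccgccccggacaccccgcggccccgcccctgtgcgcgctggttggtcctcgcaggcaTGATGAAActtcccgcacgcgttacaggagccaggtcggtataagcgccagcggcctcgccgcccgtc
CHAC1: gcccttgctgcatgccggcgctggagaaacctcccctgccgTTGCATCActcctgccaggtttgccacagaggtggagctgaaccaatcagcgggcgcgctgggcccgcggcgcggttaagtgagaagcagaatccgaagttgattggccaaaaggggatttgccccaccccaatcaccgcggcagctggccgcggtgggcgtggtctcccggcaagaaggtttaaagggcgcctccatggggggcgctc
A match describes these letters only, and binding was not measured.

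**Figure D2:**
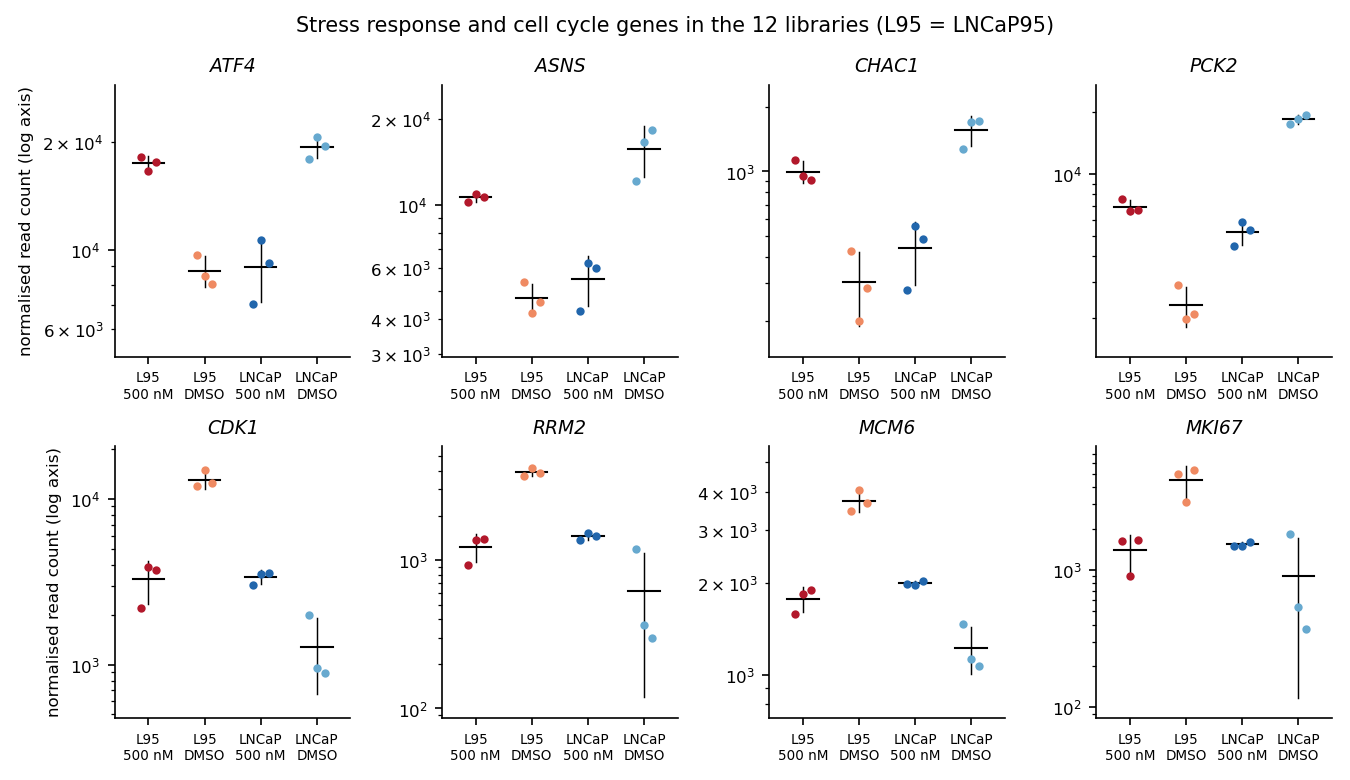
Normalised read counts on log axes of 4 stress response genes (top row) and 4 cell cycle genes (bottom row) in LNCaP95 at 500 nM, LNCaP95 with DMSO, LNCaP at 500 nM and LNCaP with DMSO; points are libraries, horizontal bars means and vertical bars SD (n = 3). In the top row 500 nM lies above DMSO in LNCaP95 and below it in LNCaP, and in the bottom row the order is turned round, except that for MKI67 the library of LNCaP with DMSO replicate 1 lies above the 500 nM libraries.

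Aminoacyl-tRNA synthetases, which charge tRNAs with amino acids, followed the same direction in part. Of 20 genes, 12 had a higher and 3 a lower interaction (median 0.82), beside 21.4% and 20.1% of all genes. Without LNCaP with DMSO replicate 1, 5 were lower. With the replicate number as a block 13 were higher and 5 lower, and with equal totals 12 were higher and 6 lower. SARS, the seryl-tRNA synthetase, had counts of 14888, 13278 and 13812 in LNCaP95 at 500 nM and 8484, 8937 and 7919.9 in LNCaP95 with DMSO, and 6016, 7526 and 6995 in LNCaP at 500 nM and 12180.1, 14392 and 14761 in LNCaP with DMSO. Its interaction was 1.74 ± 0.14 (adjusted p = 1.96e-06). GARS and CARS, for glycine and cysteine, had interactions of 1.72 ± 0.16 and 1.63 ± 0.15, and YARS, for tyrosine, 1.18 ± 0.12 (adjusted p = 5.45e-06, 4.71e-06 and 9.17e-06). The 3 lower genes were VARS (-0.64), FARSA (-0.57) and FARSB (-0.52), for valine and phenylalanine, each of which fell in LNCaP95 with no call in LNCaP.

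The unfolded protein response, the ER's answer to misfolded proteins, was raised mainly in LNCaP95. Of 26 genes, 17 rose and 1 fell in LNCaP95, beside 25.3% and 21.8% of all genes. In LNCaP 4 rose and 4 fell, near the 14.6% and 13.5% over all genes. The interaction was higher for 13 and lower for 2 (median 0.44), beside 21.4% and 20.1% of all genes. DNAJB9, a chaperone induced by IRE1 signalling, had counts of 3217, 2728 and 2791 in LNCaP95 at 500 nM and 791, 659 and 564 in LNCaP95 with DMSO, and 541, 727 and 785 in LNCaP at 500 nM and 495, 577 and 652 in LNCaP with DMSO. It rose by 2.13 in LNCaP95, where the groups did not overlap, and the interaction was 1.88 ± 0.21 (adjusted p = 2.13e-05). HERPUD1, which serves ER-associated degradation, had counts of 8489, 7603 and 8195 in LNCaP95 at 500 nM and 3492, 2853 and 2916 in LNCaP95 with DMSO, and 2841, 3753 and 3619 in LNCaP at 500 nM and 3386, 3828 and 3895 in LNCaP with DMSO. The groups were apart in LNCaP95 and overlapped in LNCaP, and the effects were 1.40 in LNCaP95 and -0.13 in LNCaP (interaction 1.52 ± 0.16, adjusted p = 1.03e-05). The sensors themselves also differed: ATF6 had an interaction of 1.30 ± 0.13 (adjusted p = 9.29e-06) and ERN1, which encodes IRE1, one of 1.80 ± 0.24 (adjusted p = 8.59e-05). HSPA5, the main ER chaperone, rose in LNCaP95 (0.71) and in LNCaP (0.52), and its interaction of 0.18 ± 0.16 was not called (adjusted p = 0.402).

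Cell division genes showed the reverse of the ATF4 pattern. All 30 tested genes of the mitosis list and all 36 of the DNA replication list had a lower interaction, beside 20.1% of all genes. The median interaction was -2.20 for mitosis, from medians of -1.37 in LNCaP95 and 0.83 in LNCaP, and -1.91 for DNA replication, from -1.17 in LNCaP95 and 0.64 in LNCaP. In LNCaP95, 29 of 30 mitosis genes and 36 of 36 replication genes fell. In LNCaP, 10 mitosis and 22 replication genes rose and 0 of either list fell. BUB3, a checkpoint protein, was the mitosis gene with no call in LNCaP95 and had the smallest interaction of its list (-0.40).

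The lists' levels by library show which groups differ. The mean log2 level of the mitosis genes was 9.44, 9.94 and 10.01 in LNCaP95 at 500 nM, against 11.12, 11.16 and 11.26 in LNCaP95 with DMSO. It was 9.74, 9.96 and 9.93 in LNCaP at 500 nM, against 10.05, 8.64 and 8.45 in LNCaP with DMSO. The treated lines thus overlapped, and the lines stood apart with DMSO. In median over the genes, LNCaP95 differed from LNCaP by -0.01 at 500 nM and by 2.20 with DMSO for mitosis, and by -0.29 at 500 nM and 1.33 with DMSO for DNA replication. Without LNCaP with DMSO replicate 1, the median interactions were -2.68 and -2.14, the lists kept 30 and 36 lower calls, and 29 mitosis and 31 replication genes rose in LNCaP. In bulk RNA, fewer dividing cells and less RNA of these genes per cell cannot be told apart.

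**Figure D3:**
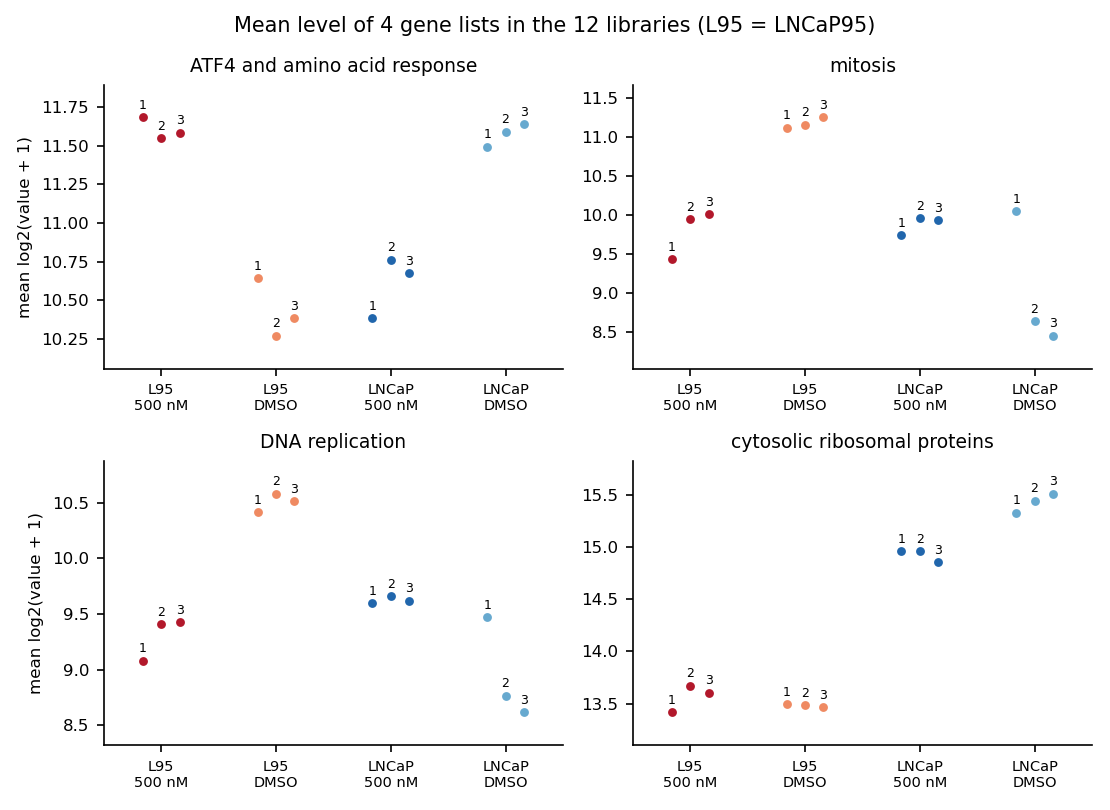
Mean log2(normalised count + 1) over the tested genes of 4 lists in each of the 12 libraries, ordered as LNCaP95 at 500 nM, LNCaP95 with DMSO, LNCaP at 500 nM and LNCaP with DMSO, with replicate numbers beside the points. Mitosis levels of LNCaP95 at 500 nM (9.44 to 10.01) and LNCaP at 500 nM (9.74 to 9.96) overlap, and LNCaP with DMSO replicate 1 (10.05) lies apart from replicates 2 and 3 (8.64 and 8.45).

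CDK1, the kinase that drives entry into mitosis, had the largest interaction of the mitosis list. Its counts were 2198, 3895 and 3718 in LNCaP95 at 500 nM and 11917, 14901 and 12434 in LNCaP95 with DMSO, and 3015, 3537 and 3591 in LNCaP at 500 nM and 1992, 960.4 and 889 in LNCaP with DMSO. The groups did not overlap within either line, and those of the treated lines did. Its interaction was -3.53 ± 0.37 (adjusted p = 1.17e-05), with effects of -2.04 in LNCaP95 and 1.5 in LNCaP. MKI67, the proliferation antigen Ki-67, had counts of 1625, 904 and 1641 in LNCaP95 at 500 nM and 5025, 3118 and 5362 in LNCaP95 with DMSO, and 1506, 1489 and 1608 in LNCaP at 500 nM and 1820.0, 534 and 374 in LNCaP with DMSO. In LNCaP the replicate 1 library with DMSO was above all 3 treated libraries, so the groups overlapped, and the effect of 1.10 was not called (adjusted p = 0.0676). Its interaction was -2.81 ± 0.60 (adjusted p = 0.00219), and -3.48 without that library. BUB1B, a spindle checkpoint kinase, had counts of 543, 776 and 807 in LNCaP95 at 500 nM and 1905, 1758 and 2252 in LNCaP95 with DMSO, and 1142, 1213 and 1279 in LNCaP at 500 nM and 1129, 434 and 345 in LNCaP with DMSO. In both lines the groups were apart, and the effects were -1.49 in LNCaP95 and 1.13 in LNCaP (interaction -2.62 ± 0.44, adjusted p = 0.000389, and -3.13 without LNCaP with DMSO replicate 1). CENPE and KIF23, motor proteins of the spindle, had interactions of -2.19 ± 0.32 and -2.27 ± 0.36 (adjusted p = 0.000166 and 0.00025).

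Among replication genes, RRM2, the small subunit of ribonucleotide reductase, had counts of 934, 1376 and 1387 in LNCaP95 at 500 nM and 3717, 4203 and 3866 in LNCaP95 with DMSO, and 1367, 1516 and 1452 in LNCaP at 500 nM and 1185, 363 and 297 in LNCaP with DMSO. In LNCaP with DMSO, replicate 1 was at more than the level of the other replicates together, yet below the treated libraries. The interaction was -3.21 ± 0.50 (adjusted p = 0.000244), and -3.83 without that replicate. MCM6, a subunit of the replicative helicase, had counts of 1578, 1846 and 1895 in LNCaP95 at 500 nM and 3456, 4039 and 3659.8 in LNCaP95 with DMSO, and 1987, 1971 and 2033 in LNCaP at 500 nM and 1466, 1123 and 1069 in LNCaP with DMSO, with no overlap within a line. Its effects were -1.07 in LNCaP95 and 0.73 in LNCaP (interaction -1.79 ± 0.16, adjusted p = 3.3e-06). PCNA, the sliding clamp of DNA polymerase, had counts of 2211, 2753 and 2596 in LNCaP95 at 500 nM and 5424, 6650.1 and 5242 in LNCaP95 with DMSO, and 4012, 4176 and 4009 in LNCaP at 500 nM and 3006, 2539.8 and 2296 in LNCaP with DMSO. No overlap occurred within a line, and the effects were -1.19 in LNCaP95 and 0.65 in LNCaP (interaction -1.84 ± 0.16, adjusted p = 3.3e-06). MCM4, another helicase subunit, had an interaction of -2.33 ± 0.21, and RFC2, a subunit of the clamp loader, -1.51 ± 0.13 (adjusted p = 4.71e-06 and 3.31e-06). MCM10, a replication initiation factor, and CLSPN, a checkpoint mediator, were called in opposite directions in the lines, with interactions of -3.42 ± 0.41 and -3.14 ± 0.40. E2F2, a transcription factor of the S-phase programme, had counts of 35.1, 49.4 and 35.7 in LNCaP95 at 500 nM and 183, 167 and 182 in LNCaP95 with DMSO, and 35.3, 46.2 and 39.7 in LNCaP at 500 nM and 25.4, 7.58 and 14.0 in LNCaP with DMSO. Its groups overlapped in neither line, and the effects were -2.14 in LNCaP95 and 1.45 in LNCaP (interaction -3.59 ± 0.45, adjusted p = 4.34e-05).

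Promoter windows of these lists held different motifs. The letters TTTGAA, the core of the cell cycle homology region of mitotic promoters, were in 17 of 24 mitosis genes with a window (70.8%), in 13.3% of tested genes and in 18.2% of all genes with a window. They were in 1 of 31 DNA replication genes, in 17.7% of tested genes called lower and in 11.6% of those called higher. E2F sites, searched as TTTGGCGC, TTTCGCGC or TTTCCCGC on both strands, were in 17 of 31 replication genes (54.8%), in 5.65% of tested genes and in 3.30% of all genes with a window, and in 2 of 24 mitosis genes. E2F letters were in 8.65% of tested genes called lower and in 4.46% of those called higher. Both lists were chosen by hand by known function, so their own shares are no evidence about these data. Windows of CDK1 and MCM6 are shown as examples, with TTTGAA in capitals in the first and the E2F letters in capitals in the second. CDK1 lies on the plus strand at chr10:60778228-60778477, with TTTGAA beginning 69 and 13 bases before the start, and its window also holds the E2F letters TTTCGCGC. MCM6, shown for its E2F sites, lies on the minus strand at chr2:135876444-135876693, and each of its runs of capitals is a forward and a reverse match that overlap, beginning 152 and 148 and then 90 and 86 bases before the start.
CDK1: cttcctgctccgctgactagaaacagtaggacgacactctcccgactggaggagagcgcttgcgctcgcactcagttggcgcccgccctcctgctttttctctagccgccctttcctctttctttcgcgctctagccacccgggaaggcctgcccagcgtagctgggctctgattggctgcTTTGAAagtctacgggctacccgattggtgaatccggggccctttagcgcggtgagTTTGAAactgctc
MCM6: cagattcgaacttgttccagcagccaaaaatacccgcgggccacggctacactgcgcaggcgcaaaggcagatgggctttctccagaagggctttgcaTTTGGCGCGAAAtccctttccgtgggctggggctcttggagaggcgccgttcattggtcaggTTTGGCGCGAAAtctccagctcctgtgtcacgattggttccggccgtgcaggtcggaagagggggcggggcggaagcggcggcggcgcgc

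Genes of protein production went both ways. Of 30 cytosolic ribosomal protein genes, 27 had a higher and 0 a lower interaction (median 0.59), beside 21.4% and 20.1% of all genes. In LNCaP 29 of 30 fell (median -0.52), beside 13.5% of all genes. In LNCaP95 3 rose and 1 fell (median 0.10), beside 25.3% and 21.8% of all genes. With quantile normalisation 10 were higher, with a median of 0.34, and 11 of 30 fell in LNCaP (median -0.27). RPL3 had counts of 21248, 25545 and 24887 in LNCaP95 at 500 nM and 19391, 20487 and 19739 in LNCaP95 with DMSO, and 85874, 83512 and 79641 in LNCaP at 500 nM and 115450.0, 123310.0 and 132330.0 in LNCaP with DMSO, with no overlap in either line, and its interaction was 0.84 ± 0.14 (adjusted p = 0.000425). RPL22 and RPS14 had interactions of 0.76 ± 0.11 and 0.65 ± 0.12 (adjusted p = 0.000105 and 0.000738). Ribosomal protein genes have many near-identical pseudogenes, so their counts are uncertain. MYC targets that build the ribosome moved the other way, with 0 higher and 19 lower of 25 (median -0.52). In LNCaP95 22 of the 25 fell, beside 21.8% of all genes. Without LNCaP with DMSO replicate 1 or LNCaP95 with DMSO replicate 2, 1 of the 25 had a higher interaction. MYBBP1A, a nucleolar protein, had counts of 2329, 2158 and 2086 in LNCaP95 at 500 nM and 3907, 3950.0 and 3872 in LNCaP95 with DMSO, and 4247, 4193 and 3809 in LNCaP at 500 nM and 4210.1, 4125 and 4025 in LNCaP with DMSO. It fell by 0.84 in LNCaP95 with an effect of -0.01 in LNCaP, and the interaction was -0.82 ± 0.097 (adjusted p = 3.07e-05). NOP56, a core protein of small nucleolar ribonucleoproteins, had an interaction of -0.71 ± 0.11 (adjusted p = 0.00019). MYC itself had counts of 4106, 5132 and 5310.5 in LNCaP95 at 500 nM and 6768, 4909.5 and 6608 in LNCaP95 with DMSO, and 5504, 6671 and 5712 in LNCaP at 500 nM and 8964, 9325 and 8392 in LNCaP with DMSO, and its interaction of 0.26 ± 0.18 was not called (adjusted p = 0.276).

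FASN, which encodes the enzyme that the drug inhibits, rose in both lines and by less in LNCaP95. Its counts were 90036, 73703 and 66479.5 in LNCaP95 at 500 nM and 40436, 41132 and 34549.5 in LNCaP95 with DMSO, and 234767, 133676 and 126294 in LNCaP at 500 nM and 54998, 29273 and 28676 in LNCaP with DMSO. The 500 nM libraries lay above the DMSO libraries in both lines. The effects were 0.98 in LNCaP95 and 2.14 in LNCaP, and the interaction was -1.16 ± 0.36 (adjusted p = 0.019). The call depended on single libraries and on the fit: the interaction was -1.0 (adjusted p = 0.0505) without LNCaP with DMSO replicate 3, -0.88 (0.0451) without LNCaP at 500 nM replicate 1 and -1.47 (0.000432) without LNCaP with DMSO replicate 1. With all 27 libraries in 1 fit the adjusted p was 0.0803, and with the 18 libraries of the lines 0.122.

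Among 11 genes of fatty acid synthesis, 2 had a higher and 1 a lower interaction, beside 21.4% and 20.1% of all genes. With the replicate block, with equal totals or without LNCaP with DMSO replicate 1, 6 were lower. Without LNCaP with DMSO replicate 3, 0 were lower, and without LNCaP at 500 nM replicate 3, 3 were. The higher count was 1 without LNCaP95 at 500 nM replicate 1 or 3, LNCaP95 with DMSO replicate 1 or 3, LNCaP at 500 nM replicate 2 or 3 or LNCaP with DMSO replicate 1 or 3. ACACA, which makes malonyl-CoA, had counts of 13878, 12149.8 and 10146 in LNCaP95 at 500 nM and 9052, 9009 and 7839 in LNCaP95 with DMSO, and 23253, 17560.4 and 20425 in LNCaP at 500 nM and 14027, 8956 and 8328 in LNCaP with DMSO, and its interaction was -0.52 ± 0.25 (adjusted p = 0.101, and 0.0105 with the replicate block and 0.00191 without LNCaP with DMSO replicate 1). ACLY, which makes cytosolic acetyl-CoA, had counts of 9843, 9901 and 9724 in LNCaP95 at 500 nM and 10647, 9313 and 11147 in LNCaP95 with DMSO, and 24041, 15393 and 15093 in LNCaP at 500 nM and 16182, 12229 and 11502 in LNCaP with DMSO, and its interaction was -0.51 ± 0.23 (adjusted p = 0.0915, and 0.0040 with the block and 0.0132 without LNCaP with DMSO replicate 1). MID1IP1, an activator of acetyl-CoA carboxylase, went the other way, with counts of 4371, 3938 and 4093 in LNCaP95 at 500 nM and 1774, 1672 and 1513 in LNCaP95 with DMSO, and 3362, 3135 and 2768 in LNCaP at 500 nM and 3366, 3396 and 3417 in LNCaP with DMSO. It rose by 1.32 in LNCaP95 alone, and the interaction was 1.46 ± 0.12 (adjusted p = 1.96e-06). ME1, malic enzyme, rose in both lines, with an interaction of 0.52 ± 0.19 (adjusted p = 0.0389). The call was lost in 12 of 25 alternatives, among them leaving out LNCaP95 at 500 nM replicate 1 or 3, LNCaP95 with DMSO replicate 1 or 3, LNCaP at 500 nM replicate 2 or 3, or LNCaP with DMSO replicate 1 or 3 (adjusted p from 0.0511 to 0.0977).

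**Figure D4:**
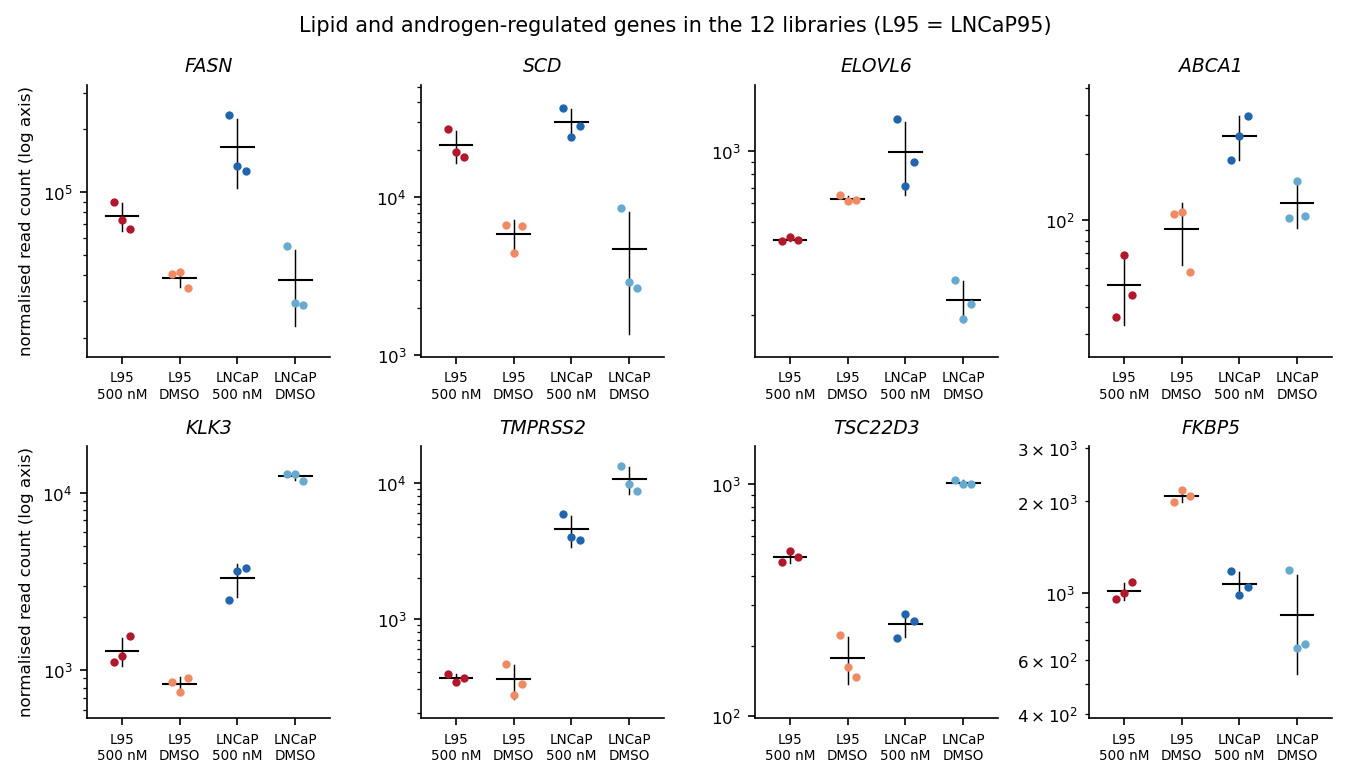
Normalised read counts on log axes of 4 lipid genes (top row) and 4 androgen-regulated genes (bottom row) in LNCaP95 at 500 nM, LNCaP95 with DMSO, LNCaP at 500 nM and LNCaP with DMSO; points are libraries, horizontal bars means and vertical bars SD (n = 3). FASN and SCD are higher at 500 nM in both lines, ELOVL6 and ABCA1 are lower at 500 nM in LNCaP95 and higher in LNCaP, and KLK3, TMPRSS2 and TSC22D3 are lower at 500 nM in LNCaP only.

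Sterol synthesis was raised in both lines, and by more in LNCaP for part of the pathway. Of 20 cholesterol synthesis genes, 16 rose and 1 fell in LNCaP95 (median 0.66), beside 25.3% and 21.8% of all genes. In LNCaP 17 rose and 0 fell (median 1.20), beside 14.6% and 13.5% of all genes. The interaction was higher for 2 and lower for 9 (median -0.42), beside 21.4% and 20.1% of all genes. Leaving out 1 library at a time gave 0 to 3 higher and 6 to 10 lower. FDFT1, squalene synthase, had counts of 11038, 9872 and 9840.0 in LNCaP95 at 500 nM and 6491, 6227 and 6205 in LNCaP95 with DMSO, and 24531, 15334 and 14463 in LNCaP at 500 nM and 5473, 3774 and 3614 in LNCaP with DMSO. It rose by 0.70 in LNCaP95 and 2.06 in LNCaP, and the interaction was -1.36 ± 0.25 (adjusted p = 0.000805), and -1.12 without LNCaP at 500 nM replicate 1. EBP, a sterol isomerase, fell in LNCaP95 and rose in LNCaP, with counts of 1950.4, 2088 and 1985 in LNCaP95 at 500 nM and 2576, 3249 and 2542 in LNCaP95 with DMSO, and 3048, 2115 and 2006 in LNCaP at 500 nM and 1276, 858 and 848 in LNCaP with DMSO. 500 nM and DMSO did not overlap within either line, and the effects were -0.47 in LNCaP95 and 1.27 in LNCaP (interaction -1.73 ± 0.24, adjusted p = 9.81e-05, and -1.54 without LNCaP at 500 nM replicate 1). HMGCS1, which acts early in sterol synthesis, had counts of 4938, 4016 and 4913 in LNCaP95 at 500 nM and 2006, 1791 and 2114 in LNCaP95 with DMSO, and 8767, 3778 and 4049 in LNCaP at 500 nM and 1159, 1109 and 1132 in LNCaP with DMSO. The treated LNCaP replicate 1 was above the rest of its group, and the interaction of -0.95 ± 0.32 (adjusted p = 0.0285) was -0.56 (0.0072) without it. It was not called without LNCaP95 at 500 nM replicate 2, LNCaP95 with DMSO replicate 1 or 3, or LNCaP with DMSO replicate 2 (adjusted p from 0.0511 to 0.0699), nor with all 27 libraries in 1 fit or 18. SQLE, squalene epoxidase, had an interaction of -0.29 ± 0.16 that was not called (adjusted p = 0.166). The letters TCACNCCAC of the sterol regulatory element, searched on both strands, were in 0 of 15 cholesterol synthesis genes with a promoter window, in 1.51% of tested genes and in 1.39% of all genes with a window. No other form of the element was searched, and 0 of 15 is close to the share over tested genes. The absence of a match therefore does not show that these genes lack the element.

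The SREBP factors themselves rose in both lines, and neither interaction was called. SREBF1 had counts of 15240.5, 14334 and 15038 in LNCaP95 at 500 nM and 6114, 6046 and 6306 in LNCaP95 with DMSO, and 22346, 22074 and 20414 in LNCaP at 500 nM and 10858, 9146 and 8440.0 in LNCaP with DMSO. The groups were apart in both lines, and the effects were 1.27 in LNCaP95 and 1.20 in LNCaP (interaction 0.08 ± 0.13, adjusted p = 0.66). SREBF2 had an interaction of 0.14 ± 0.18 (adjusted p = 0.556). Of 12 SREBP regulators and sterol uptake genes, 1 was higher and 5 lower, beside 21.4% and 20.1% of all genes. INSIG1, which holds SREBP in the ER, had counts of 8097, 7148 and 7538 in LNCaP95 at 500 nM and 2948, 2256 and 2684 in LNCaP95 with DMSO, and 8043, 3855 and 3903 in LNCaP at 500 nM and 1146, 495 and 542 in LNCaP with DMSO. Neither line showed overlap, and the effects were 1.54 in LNCaP95 and 2.87 in LNCaP (interaction -1.34 ± 0.41, adjusted p = 0.0187, and -0.98 with 0.0407 without LNCaP at 500 nM replicate 1). The interaction was not called with all 27 libraries in 1 fit (0.0638) or 18 libraries (0.104). NPC1, which exports cholesterol from lysosomes, had counts of 7644, 8126 and 6310.0 in LNCaP95 at 500 nM and 3405, 3527 and 2809 in LNCaP95 with DMSO, and 6517, 6871 and 6764 in LNCaP at 500 nM and 1773, 1441 and 1334 in LNCaP with DMSO. Treated and untreated libraries were apart in each line, and the effects were 1.18 in LNCaP95 and 2.16 in LNCaP (interaction -0.98 ± 0.17, adjusted p = 0.000487).

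Of 13 genes that elongate and desaturate fatty acids, 2 had a higher and 4 a lower interaction, beside 21.4% and 20.1% of all genes. ELOVL6, which extends palmitate to stearate, had counts of 416, 429 and 417 in LNCaP95 at 500 nM and 649, 614 and 619 in LNCaP95 with DMSO, and 1373, 711 and 898 in LNCaP at 500 nM and 284, 192 and 223 in LNCaP with DMSO. It fell in LNCaP95 and rose in LNCaP with no overlap of groups, and the interaction was -2.63 ± 0.27 (adjusted p = 9.82e-06). SCD, which makes monounsaturated fatty acids, had counts of 26898, 19252 and 18015 in LNCaP95 at 500 nM and 6626, 4453 and 6592 in LNCaP95 with DMSO, and 37018, 24229 and 28192 in LNCaP at 500 nM and 8612, 2905 and 2671 in LNCaP with DMSO. It rose in both lines, and the interaction of -0.99 ± 0.48 was not called (adjusted p = 0.116), while it was with the replicate block (0.0126) and without LNCaP with DMSO replicate 1 (-1.54, 0.000143). FADS2, the delta-6 desaturase, had an interaction of -1.19 ± 0.28 (adjusted p = 0.00397). Over the list of 13 genes, 2 were higher and 4 lower.

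Genes of fatty acid uptake moved both ways in each line, and those of oxidation fell more often than they rose. Of 15 uptake and activation genes, 4 rose and 4 fell in LNCaP95, beside 25.3% and 21.8% of all genes. In LNCaP 6 rose and 3 fell, beside 14.6% and 13.5% of all genes. The interaction was higher for 2 and lower for 4, beside 21.4% and 20.1% of all genes. Without LNCaP with DMSO replicate 1, 7 were lower. ACSL4 and ACSL5, which activate fatty acids to acyl-CoA, rose in LNCaP with effects in LNCaP95 of -0.05 and -0.00. ACSL4 had counts of 519, 482 and 506 in LNCaP95 at 500 nM and 548, 569.8 and 453 in LNCaP95 with DMSO, and 239, 173 and 185 in LNCaP at 500 nM and 90.0, 71.1 and 46.0 in LNCaP with DMSO. The groups overlapped in LNCaP95 and were apart in LNCaP, and the effects were -0.05 in LNCaP95 and 1.55 in LNCaP (interaction -1.61 ± 0.28, adjusted p = 0.000542). Of 25 fatty acid oxidation genes, 5 rose and 11 fell in LNCaP95, and 2 rose and 8 fell in LNCaP. Without LNCaP with DMSO replicate 1, 4 rose and 11 fell in LNCaP. Their interaction was higher for 4 and lower for 7. CPT1A, which admits long-chain fatty acids to mitochondria, fell in both lines, with counts of 935, 775 and 799 in LNCaP95 at 500 nM and 3415, 3091 and 3541 in LNCaP95 with DMSO, and 1107, 1121 and 1209.8 in LNCaP at 500 nM and 3752, 3322 and 3189 in LNCaP with DMSO. Its interaction of -0.43 ± 0.13 (adjusted p = 0.016) was not called with all 27 libraries in 1 fit (0.210) or 18 libraries (0.250). LPIN1, which makes diacylglycerol, had counts of 2348, 1604 and 1986 in LNCaP95 at 500 nM and 1008, 884 and 1046 in LNCaP95 with DMSO, and 4006, 2458 and 2665 in LNCaP at 500 nM and 572, 465 and 459 in LNCaP with DMSO. In both lines the groups were apart, and the effects were 1.0 in LNCaP95 and 2.58 in LNCaP (interaction -1.58 ± 0.24, adjusted p = 0.000208). PLIN4, a lipid droplet coat protein, fell in LNCaP (-2.41) with an effect of 0.83 in LNCaP95, and its interaction was 3.24 ± 0.50 (adjusted p = 0.000235). Of 18 triglyceride and lipid droplet genes 5 were higher and 6 lower, and of 20 phospholipid synthesis genes 3 were higher and 8 lower.

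The sterol efflux pumps, targets of the LXR receptors, moved apart from each other. ABCA1 had counts of 36.0, 69.0 and 45.2 in LNCaP95 at 500 nM and 107, 108 and 57.7 in LNCaP95 with DMSO, and 187, 241 and 296 in LNCaP at 500 nM and 102, 151 and 104 in LNCaP with DMSO. It was called lower in LNCaP95, where the groups overlapped, and higher in LNCaP, where they did not, and the interaction was -1.86 ± 0.40 (adjusted p = 0.00223). ABCG1 had counts of 1691, 1695 and 1599 in LNCaP95 at 500 nM and 245, 268 and 226 in LNCaP95 with DMSO, and 1555, 1883 and 1938 in LNCaP at 500 nM and 434, 573 and 575 in LNCaP with DMSO. It rose in both lines, more in LNCaP95, with an interaction of 0.98 ± 0.17 (adjusted p = 0.000435).

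The androgen-induced genes gave no shared direction of the interaction, while KLK3, KLK2 and TMPRSS2 had large positive interactions. Of 38 androgen-induced genes, 9 had a higher and 7 a lower interaction, shares of the list close to those over all genes. These counts changed with the processing: 17 higher and 10 lower with the replicate block, 14 and 10 with LNCaP replicates 2 and 3 only, and 10 and 13 without LNCaP with DMSO replicate 1. Without LNCaP with DMSO replicate 3, 4 were lower. Within LNCaP, 6 of the 38 rose and 12 fell, beside 14.6% and 13.5% of all genes. That lean turned on 1 library, since 12 rose and 12 fell without LNCaP with DMSO replicate 1. Within LNCaP95, 10 rose and 8 fell, beside 25.3% and 21.8% of all genes. KLK3 had counts of 1113, 1197 and 1559 in LNCaP95 at 500 nM and 854, 751 and 900.1 in LNCaP95 with DMSO, and 2482, 3637 and 3752 in LNCaP at 500 nM and 12816, 12836 and 11703 in LNCaP with DMSO. It rose in LNCaP95 (0.61) and fell in LNCaP (-1.94), with no overlap within a line, and all LNCaP95 libraries were below all LNCaP libraries. The interaction was 2.56 ± 0.21 (adjusted p = 2.2e-06). KLK2, its neighbour and paralog, had counts of 283, 358 and 411 in LNCaP95 at 500 nM and 296, 351 and 307 in LNCaP95 with DMSO, and 1395, 1140.0 and 982 in LNCaP at 500 nM and 5945, 2840.4 and 2687 in LNCaP with DMSO. In LNCaP95 the groups overlapped, in LNCaP they were apart, and the effects were 0.13 in LNCaP95 and -1.62 in LNCaP (interaction 1.75 ± 0.34, adjusted p = 0.00117, and 1.38 without LNCaP with DMSO replicate 1). TMPRSS2, a membrane protease, had counts of 387, 339 and 363 in LNCaP95 at 500 nM and 464, 274 and 327 in LNCaP95 with DMSO, and 5890.2, 3965 and 3775 in LNCaP at 500 nM and 13402, 9843 and 8751 in LNCaP with DMSO. It fell in LNCaP with an effect of 0.06 in LNCaP95, and the interaction was 1.30 ± 0.28 (adjusted p = 0.00241).

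TSC22D3, a steroid-induced leucine zipper protein, had the largest interaction of the androgen-induced list, with counts of 459.9, 514 and 484 in LNCaP95 at 500 nM and 224, 162 and 146 in LNCaP95 with DMSO, and 216, 276 and 256 in LNCaP at 500 nM and 1044, 1005 and 997 in LNCaP with DMSO. It was 3.50 ± 0.20 (adjusted p = 1.74e-07), with the treated LNCaP95 libraries between the LNCaP groups. FKBP5, a chaperone of steroid receptors, had the opposite sign, with counts of 957, 999.5 and 1085 in LNCaP95 at 500 nM and 1997, 2174 and 2092 in LNCaP95 with DMSO, and 1182, 986 and 1043 in LNCaP at 500 nM and 1193, 657 and 681 in LNCaP with DMSO. It fell by 1.04 in LNCaP95, and the interaction was -1.44 ± 0.24 (adjusted p = 0.00039). FOXA1, a pioneer transcription factor of luminal cells, had a higher interaction of 0.69 ± 0.12 (adjusted p = 0.0005). Of 13 androgen-repressed genes, 2 were higher and 4 lower (7 lower with the replicate block), beside 21.4% and 20.1% of all genes. ST7 was 1 of the higher ones, with counts of 7022, 6745 and 6803 in LNCaP95 at 500 nM and 3146, 2695 and 2987 in LNCaP95 with DMSO, and 10604, 9216 and 9059.8 in LNCaP at 500 nM and 11395, 13334 and 14386 in LNCaP with DMSO. No overlap occurred within a line, and the effects were 1.22 in LNCaP95 and -0.43 in LNCaP (interaction 1.66 ± 0.14, adjusted p = 2.0e-06). TMEFF2, a transmembrane protein of prostate cells, had an interaction of -1.74 ± 0.33 (adjusted p = 0.000891). Of 12 androgen and steroid synthesis genes, 1 was higher and 2 lower. There were 4 lower without LNCaP with DMSO replicate 1, 0 higher and 3 lower without LNCaP95 with DMSO replicate 3, 0 higher and 1 lower without LNCaP95 at 500 nM replicate 1, and 0 higher without LNCaP with DMSO replicate 2. UGT2B28, which conjugates androgens, had -3.04 ± 0.51 (adjusted p = 0.000387), with reads that paralogs may share.

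CDKN1A, the p21 inhibitor of cyclin-dependent kinases, rose in both lines. Its counts were 2652, 2442 and 2391 in LNCaP95 at 500 nM and 1182, 1155 and 918 in LNCaP95 with DMSO, and 2509.6, 2979 and 2992 in LNCaP at 500 nM and 2201, 1403 and 1541 in LNCaP with DMSO, and its interaction of 0.46 ± 0.21 was not called (adjusted p = 0.0845). Of 24 p53 target genes, 10 were higher and 4 lower, beside 21.4% and 20.1% of all genes. GDF15 and SESN2, 2 of the 10, are also in the ATF4 list. The lower count was 2 without LNCaP95 with DMSO replicate 3, LNCaP at 500 nM replicate 2 or LNCaP with DMSO replicate 2 or 3. GDF15, a secreted stress factor, had counts of 10632, 8112 and 8848 in LNCaP95 at 500 nM and 2994, 1994 and 1834 in LNCaP95 with DMSO, and 16928, 20402 and 18151 in LNCaP at 500 nM and 55017, 25974 and 29462 in LNCaP with DMSO. Its groups overlapped in neither line, and the effects were 2.04 in LNCaP95 and -0.92 in LNCaP (interaction 2.96 ± 0.33, adjusted p = 2.04e-05, and 2.63 without LNCaP with DMSO replicate 1). BBC3, which encodes the pro-apoptotic protein PUMA, rose in LNCaP95 with an interaction of 1.98 ± 0.22 (adjusted p = 1.66e-05). FAS, a death receptor, was lower in LNCaP95 and higher in LNCaP at 500 nM, with an interaction of -1.44 ± 0.22 (adjusted p = 0.000206).

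Interferon-response genes rose mainly in LNCaP. Of 21 genes, 11 rose and 0 fell in LNCaP (median 0.49), beside 14.6% and 13.5% of all genes. In LNCaP95 5 rose and 4 fell (median -0.02), near the 25.3% and 21.8% over all genes. The interaction was higher for 2 and lower for 11, beside 21.4% and 20.1% of all genes. It was lower for 7 when any of LNCaP at 500 nM replicate 2 or 3 or LNCaP with DMSO replicate 2 or 3 was left out. The higher count was 1 without LNCaP95 at 500 nM replicate 1, LNCaP95 with DMSO replicate 2 or 3 or LNCaP at 500 nM replicate 1. IFIT1, an antiviral RNA-binding protein, had counts of 60.0, 69.0 and 72.5 in LNCaP95 at 500 nM and 165, 134 and 151 in LNCaP95 with DMSO, and 57.2, 66.5 and 60.4 in LNCaP at 500 nM and 24.2, 7.58 and 8.0 in LNCaP with DMSO. 500 nM and DMSO did not overlap within either line, and the effects were -1.15 in LNCaP95 and 2.32 in LNCaP (interaction -3.46 ± 0.45, adjusted p = 6.48e-05). OAS1, a sensor of double-stranded RNA, had counts of 115, 106 and 102 in LNCaP95 at 500 nM and 131, 109.6 and 115 in LNCaP95 with DMSO, and 24.4, 29.8 and 34.0 in LNCaP at 500 nM and 8.08, 4.74 and 4.0 in LNCaP with DMSO. Overlap occurred in LNCaP95 only, and the effects were -0.13 in LNCaP95 and 2.24 in LNCaP (interaction -2.37 ± 0.33, adjusted p = 0.000114). Levels with DMSO were lower in LNCaP than in LNCaP95 in these genes. ISG20, an exonuclease, was an exception and rose in LNCaP95, with an interaction of 1.11 ± 0.17 (adjusted p = 0.000204). Of 16 genes of MHC class I presentation, 4 were higher and 6 lower, and 2 were higher with equal totals or without LNCaP95 at 500 nM replicate 1, LNCaP95 with DMSO replicate 3 or LNCaP at 500 nM replicate 2 or 3. NLRC5, the activator of MHC class I genes, had counts of 75.7, 61.8 and 78.4 in LNCaP95 at 500 nM and 92.4, 92.4 and 103 in LNCaP95 with DMSO, and 183, 97.9 and 104 in LNCaP at 500 nM and 47.3, 22.8 and 14.0 in LNCaP with DMSO. The groups were apart in both lines, and the effects were -0.42 in LNCaP95 and 2.26 in LNCaP (interaction -2.68 ± 0.48, adjusted p = 0.000658). B2M, the invariant light chain, rose in both lines and by less in LNCaP95, with an interaction of -0.63 ± 0.13 (adjusted p = 0.00205).

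Nuclear genes of respiration leaned lower in LNCaP95, and the count for glycolysis turned on 1 library. Of 23 glycolysis genes, 2 were higher and 6 lower (median -0.41), beside 21.4% and 20.1% of all genes. There were 10 lower under the replicate block or equal totals and 17 lower without LNCaP with DMSO replicate 1. The higher count was 1 without any single LNCaP95 library other than LNCaP95 at 500 nM replicate 1, or without LNCaP at 500 nM replicate 1. PKM, pyruvate kinase, had counts of 16095, 19274 and 18789 in LNCaP95 at 500 nM and 28336, 31401 and 29467 in LNCaP95 with DMSO, and 24674, 22927 and 22419.8 in LNCaP at 500 nM and 30045, 17186 and 17782 in LNCaP with DMSO. It fell in LNCaP95, and in LNCaP with DMSO replicate 1 lay above the treated libraries and replicates 2 and 3 below them. The interaction was -0.88 ± 0.23 (adjusted p = 0.00834), and -1.14 without that replicate. SLC16A1, a lactate transporter, was higher at 0.77 ± 0.16 (adjusted p = 0.00187). Of 25 nuclear genes of the respiratory chain, 0 were higher and 12 lower (median -0.31), among them NDUFA9 of complex I (-0.73 ± 0.10) and SDHA of complex II (-0.66 ± 0.11; adjusted p = 0.000113 and 0.000444). Of the 13 mitochondrially encoded genes 0 were called in limma, 0 had an unadjusted p under 0.05 and 0 were called in edgeR, and MT-ND2, the one with the smallest p, had counts of 34806, 66516 and 18446 in LNCaP95 at 500 nM and 28900.4, 14780.2 and 19451 in LNCaP95 with DMSO, and 20999.8, 43572 and 34234 in LNCaP at 500 nM and 32855, 21007 and 29171 in LNCaP with DMSO. The groups overlapped in both lines, and the effects were 0.79 in LNCaP95 and 0.21 in LNCaP (interaction 0.57 ± 0.54, adjusted p = 0.423). Of 20 hypoxia genes, 5 were higher and 4 lower. Without LNCaP95 at 500 nM replicate 3, LNCaP95 with DMSO replicate 3 or LNCaP at 500 nM replicate 1, 3 were higher, and without LNCaP with DMSO replicate 1, 7 were lower. VEGFA, the vascular growth factor, had counts of 2161, 1724 and 1956 in LNCaP95 at 500 nM and 806, 652 and 713 in LNCaP95 with DMSO, and 1061, 1293 and 1139 in LNCaP at 500 nM and 1530.3, 1879 and 1701 in LNCaP with DMSO. Neither line showed overlap, and the effects were 1.43 in LNCaP95 and -0.55 in LNCaP (interaction 1.97 ± 0.16, adjusted p = 1.83e-06), and CA12, a carbonic anhydrase, had one of -2.11 ± 0.25 (adjusted p = 3.07e-05).

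Iron, redox and lysosome genes held a mix of shared and divergent responses. Of 18 genes of iron handling and ferroptosis, 7 were higher and 4 lower, beside 21.4% and 20.1% of all genes. FTL, the ferritin light chain, had counts of 8192, 7694 and 7660.2 in LNCaP95 at 500 nM and 3495, 3528 and 3251 in LNCaP95 with DMSO, and 11016, 10512 and 9972 in LNCaP at 500 nM and 11841, 9254 and 9723 in LNCaP with DMSO. In LNCaP95 the groups were apart, in LNCaP they overlapped, and the effects were 1.20 in LNCaP95 and 0.04 in LNCaP (interaction 1.16 ± 0.13, adjusted p = 1.75e-05). The heavy chain FTH1 had 1.40 ± 0.27 (adjusted p = 0.00115). Of 24 NRF2 and pentose phosphate genes, 6 were higher and 2 lower, with 9 lower without LNCaP with DMSO replicate 1, and KEAP1, which restrains NRF2, was higher at 0.65 ± 0.10 (adjusted p = 0.000308). Of 31 lysosome and autophagy genes, 22 rose in LNCaP95 and 11 in LNCaP, beside 25.3% and 14.6% of all genes. The interaction was higher for 11 and lower for 1, and lower for 4 without LNCaP with DMSO replicate 1. MAP1LC3B, which coats autophagosomes, had counts of 2089, 1723 and 1706 in LNCaP95 at 500 nM and 779, 722 and 686 in LNCaP95 with DMSO, and 489, 615 and 616 in LNCaP at 500 nM and 445, 628 and 784 in LNCaP with DMSO. Overlap occurred in LNCaP only, and the effects were 1.33 in LNCaP95 and -0.08 in LNCaP (interaction 1.41 ± 0.23, adjusted p = 0.000361). GPNMB, a lysosomal membrane protein picked after its values were seen, rose by 3.42 in LNCaP95 and 3.37 in LNCaP, with an interaction of 0.05 ± 0.38 (adjusted p = 0.928). Of 22 sphingolipid synthesis genes, 10 were higher and 3 lower (5 lower with the replicate block), with CERS4 at 1.12 ± 0.13 and CERS6 at -1.36 ± 0.17, ceramide synthases of opposite sign (adjusted p = 3.14e-05 and 4.31e-05).

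Of 16 heat shock proteins, 1 was higher and 8 lower (median -0.40), beside 21.4% and 20.1% of all genes. HSPB1, a small chaperone, had counts of 4328, 5649 and 4982 in LNCaP95 at 500 nM and 9923, 9304 and 7997 in LNCaP95 with DMSO, and 8152, 9259 and 7693 in LNCaP at 500 nM and 6233, 5056 and 5219.9 in LNCaP with DMSO, and it fell in LNCaP95 and rose in LNCaP with an interaction of -1.47 ± 0.17 (adjusted p = 2.1e-05). HSP90AA1, the inducible HSP90, had an interaction of -0.88 ± 0.15 (adjusted p = 0.000512). Of 16 immediate early and MAPK feedback genes, 2 were higher and 5 lower. The count of higher members was 0 without LNCaP95 at 500 nM replicate 2 or 3 or LNCaP at 500 nM replicate 2, and 1 without LNCaP95 with DMSO replicate 1, 2 or 3, LNCaP at 500 nM replicate 1 or 3 or LNCaP with DMSO replicate 2 or 3. That of lower members was 3 without LNCaP95 with DMSO replicate 3 or LNCaP at 500 nM replicate 2 or 3. DUSP5, a phosphatase of nuclear ERK, had counts of 565, 958 and 973 in LNCaP95 at 500 nM and 2234, 2598 and 2507 in LNCaP95 with DMSO, and 102, 142 and 132 in LNCaP at 500 nM and 62.3, 80.6 and 76.0 in LNCaP with DMSO. Treated and untreated libraries were apart in each line, and the effects were -1.59 in LNCaP95 and 0.77 in LNCaP (interaction -2.36 ± 0.27, adjusted p = 2.2e-05). EGR1, an immediate early factor, had counts of 32.3, 48.4 and 121 in LNCaP95 at 500 nM and 320.5, 369 and 1086 in LNCaP95 with DMSO, and 144, 237 and 228 in LNCaP at 500 nM and 40.4, 609.6 and 209.9 in LNCaP with DMSO, a spread of over 10-fold within LNCaP with DMSO. Its interaction was -3.30 ± 1.06 (adjusted p = 0.0232), and the call was lost in DESeq2 (0.0736) and without LNCaP95 at 500 nM replicate 1, LNCaP95 with DMSO replicate 3, or LNCaP at 500 nM replicate 2 or 3 (0.0503 to 0.0628).

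**Figure D5:**
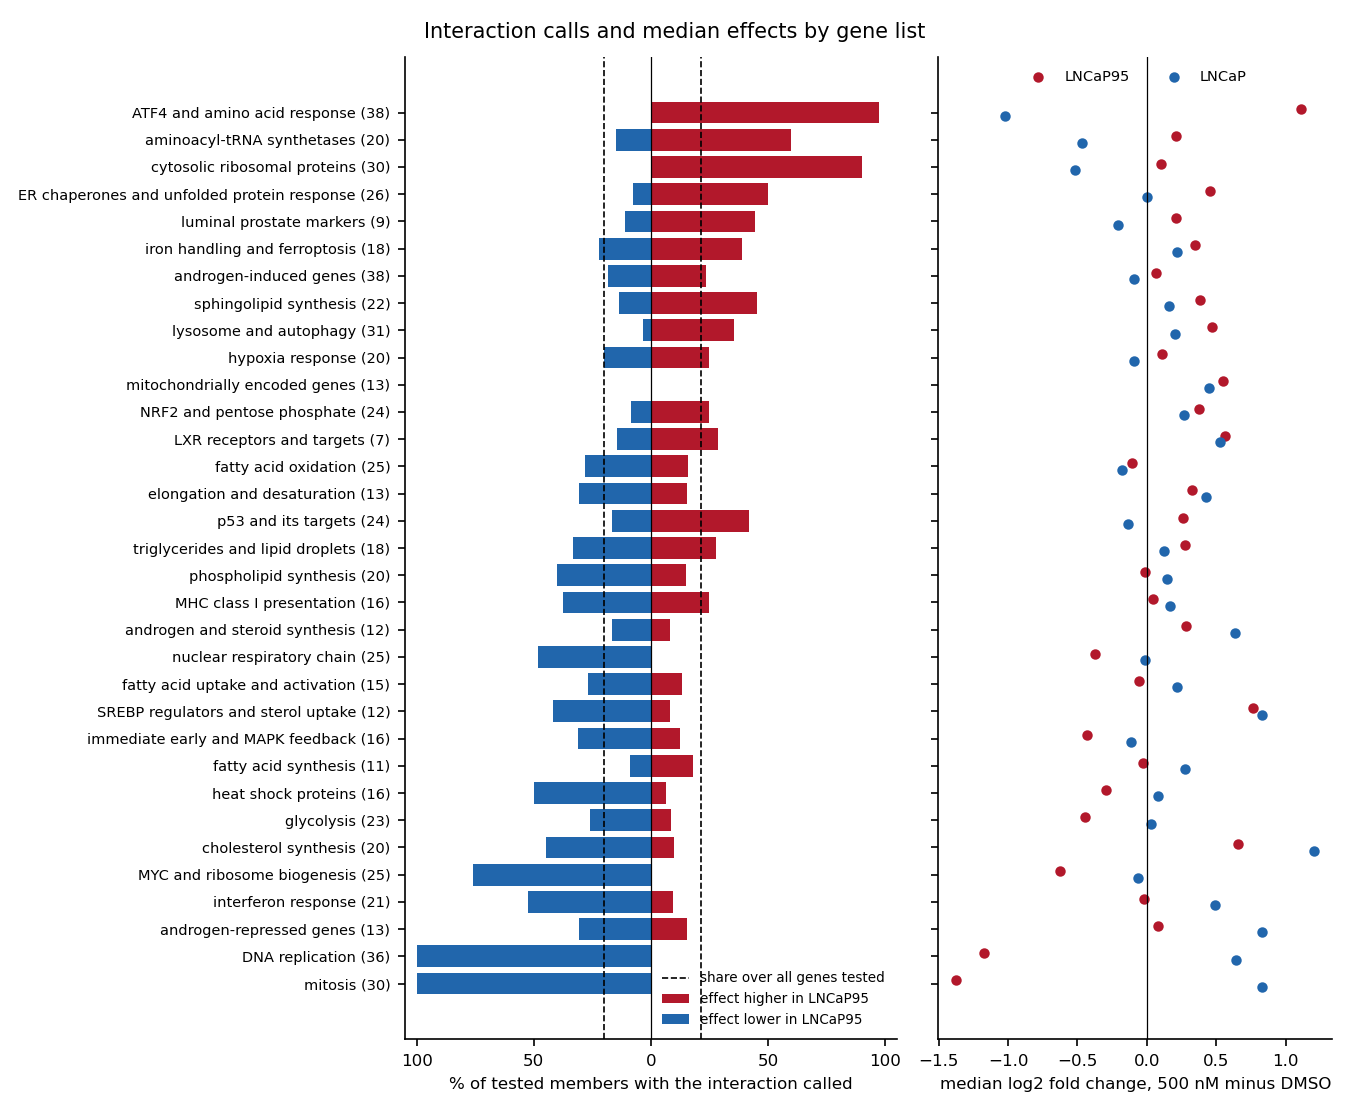
Left, for each of 33 gene lists, the percent of members with a called interaction, effect higher in LNCaP95 to the right and lower to the left, with dashed lines at the shares over all genes (21.4% and 20.1%). Right, the median log2 fold change of 500 nM over DMSO in LNCaP95 and in LNCaP; they are 1.11 and -1.02 for the ATF4 list and -1.37 and 0.83 for the mitosis list.

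Among called genes with a group mean of 50 or more, PRSS1, trypsinogen, had the largest positive interaction. Its counts were 1178, 603 and 750.0 in LNCaP95 at 500 nM and 37.9, 24.3 and 35.7 in LNCaP95 with DMSO, and 161, 234 and 204 in LNCaP at 500 nM and 187, 468 and 433 in LNCaP with DMSO and its interaction was 5.39 ± 0.45 (adjusted p = 2.32e-06); its reads may be shared with PRSS3 (4.82). NDUFA4L2, a hypoxia-induced mitochondrial protein, had counts of 81.3, 96.8 and 67.7 in LNCaP95 at 500 nM and 22.0, 15.7 and 15.2 in LNCaP95 with DMSO, and 24.4, 29.0 and 34.8 in LNCaP at 500 nM and 248, 183 and 205 in LNCaP with DMSO. In both lines the groups were apart, and the effects were 2.16 in LNCaP95 and -2.81 in LNCaP (interaction 4.97 ± 0.31, adjusted p = 2.73e-07). LCN2, an iron-scavenging lipocalin, had counts of 325, 110.1 and 132 in LNCaP95 at 500 nM and 4.40, 4.70 and 0.759 in LNCaP95 with DMSO, and 104, 131 and 113 in LNCaP at 500 nM and 25.4, 122 and 133 in LNCaP with DMSO. Its level in LNCaP95 with DMSO was a few reads, at which a fitted fold depends on the pseudocount, and at 500 nM it overlapped that of LNCaP. The same limit holds for other genes with a group of a few reads, among them LPO, PRSS3, FIBIN, DMGDH, DDR2, INHBE, MALL and OAS1. To a lesser degree it holds for AGR2, FGFR3, IFIT1 and TRDN, which were low in LNCaP with DMSO. INHBE, an inhibin subunit, had counts of 84.0, 42.2 and 76.1 in LNCaP95 at 500 nM and 10.6, 6.26 and 3.04 in LNCaP95 with DMSO, and 5.89, 8.61 and 8.28 in LNCaP at 500 nM and 21.9, 31.3 and 22.0 in LNCaP with DMSO. No overlap occurred within a line, and the effects were 3.24 in LNCaP95 and -1.60 in LNCaP (interaction 4.83 ± 0.55, adjusted p = 2.22e-05). FUT3, which makes Lewis antigens, had counts of 129, 139 and 122 in LNCaP95 at 500 nM and 32.6, 18.8 and 15.9 in LNCaP95 with DMSO, and 9.26, 14.9 and 15.7 in LNCaP at 500 nM and 60.0, 41.7 and 43.0 in LNCaP with DMSO. Its groups overlapped in neither line, and the effects were 2.55 in LNCaP95 and -1.80 in LNCaP (interaction 4.35 ± 0.40, adjusted p = 4.71e-06). BCL11B, a zinc finger factor known from T cells, had counts of 301, 205 and 209 in LNCaP95 at 500 nM and 83.6, 37.6 and 60.7 in LNCaP95 with DMSO, and 8.42, 16.4 and 17.4 in LNCaP at 500 nM and 48.5, 55.0 and 69.0 in LNCaP with DMSO, and its lines overlapped with DMSO and were apart at 500 nM. FIBIN (4.85), LPO, lactoperoxidase (4.80), DMGDH, dimethylglycine dehydrogenase (4.78), KLHDC7B (4.52), MOV10L1, a germline RNA helicase (4.42), and DDR2, a collagen receptor (4.38), completed the 12 largest positive values among such genes.

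Among the 12 most negative interactions of called genes with a group mean of 50 or more, UGT2B10, a glucuronosyltransferase with near-identical paralogs, had counts of 727, 968 and 925 in LNCaP95 at 500 nM and 947, 1293 and 1130.1 in LNCaP95 with DMSO, and 594, 1209 and 1284 in LNCaP at 500 nM and 66.9, 55.0 and 47.0 in LNCaP with DMSO. It rose by 4.10 in LNCaP to the level LNCaP95 had with and without drug, and the interaction was -4.47 ± 0.34 (adjusted p = 1.58e-06). AGR2, a protein disulfide isomerase of the ER, had counts of 16602, 22279 and 20715 in LNCaP95 at 500 nM and 5246, 7663 and 6400.5 in LNCaP95 with DMSO, and 383, 641 and 607 in LNCaP at 500 nM and 8.08, 8.53 and 15.0 in LNCaP with DMSO. It rose in both lines, by 1.63 in LNCaP95 and 5.57 in LNCaP, and stayed far higher in LNCaP95, with an interaction of -3.94 ± 0.32 (adjusted p = 1.96e-06). FGFR3, a growth factor receptor, had counts of 40.6, 62.8 and 60.6 in LNCaP95 at 500 nM and 115, 115.8 and 141 in LNCaP95 with DMSO, and 69.0, 70.5 and 72.9 in LNCaP at 500 nM and 18.5, 4.74 and 8.0 in LNCaP with DMSO. 500 nM and DMSO did not overlap within either line, and the effects were -1.19 in LNCaP95 and 2.84 in LNCaP (interaction -4.03 ± 0.48, adjusted p = 3.17e-05). DPP4, a cell surface peptidase, had counts of 9.23, 12.4 and 4.75 in LNCaP95 at 500 nM and 22.9, 17.2 and 15.2 in LNCaP95 with DMSO, and 116.1, 150.3 and 127 in LNCaP at 500 nM and 27.7, 23.7 and 17.0 in LNCaP with DMSO. The groups were apart in both lines, and the effects were -1.05 in LNCaP95 and 2.49 in LNCaP (interaction -3.54 ± 0.44, adjusted p = 4.68e-05). MYB, a transcription factor of progenitor cells, had counts of 24.9, 34.0 and 29.7 in LNCaP95 at 500 nM and 88.9, 81.4 and 114 in LNCaP95 with DMSO, and 50.5, 65.8 and 49.7 in LNCaP at 500 nM and 35.8, 9.48 and 15.0 in LNCaP with DMSO and opposite calls in the lines, with an interaction of -3.25 ± 0.50 (adjusted p = 0.000212). MALL (-4.31), the tubulin gene TUBA3D (-3.97), TRDN, triadin (-3.46), and DHRS2, a dehydrogenase (-3.40), with CDK1, E2F2, IFIT1 and MCM10 given above, completed the 12.

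The same difference was measured at 100 nM, in other treated libraries but against the same 6 DMSO libraries. Of 12028 genes tested, 5386 (44.8%) were called, 2758 higher and 2628 lower. The ATF4 list had a median interaction of 2.42 at 100 nM with 37 higher, mitosis -2.80 with 30 lower and DNA replication -2.44 with 36 lower. ATF4 had 2.52 at 100 nM, CDK1 -3.96, KLK3 2.3 and ELOVL6 -2.20 (adjusted p = 4.26e-08, 6.09e-06, 1.09e-05 and 0.000269). The cholesterol list had 3 higher and 2 lower at 100 nM, with a median of -0.11. FASN had -0.13 at 100 nM (adjusted p = 0.884), INSIG1 -0.02 (0.981) and SCD 0.16 (0.86), none of which was called. Whether the interactions differ between the doses was not tested.

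Of markers of other cell types, 6 passed the filter in both lines. A lower interaction was called for 3 of these, COL3A1, COL1A1 and CD68, beside 20.1% of all genes. The call of COL1A1 was lost with no filter (adjusted p = 0.0614) and without any of 7 single libraries, namely LNCaP95 at 500 nM replicate 2 or 3, LNCaP95 with DMSO replicate 1 or 2, LNCaP at 500 nM replicate 2 or 3 or LNCaP with DMSO replicate 3 (adjusted p from 0.0602 to 0.118). Of basal and endothelial markers 0 passed the filter in both lines. The neuroendocrine marker tested, ENO2, had counts of 584, 554 and 573 in LNCaP95 at 500 nM and 566, 528 and 669 in LNCaP95 with DMSO, and 477, 553 and 414 in LNCaP at 500 nM and 452, 228 and 235 in LNCaP with DMSO and an interaction of -0.76 ± 0.29 (adjusted p = 0.0501, and 0.0240 with the replicate block and 6.25e-05 without LNCaP with DMSO replicate 1). CD3E, of T cells, was at 0 in every library. COL3A1, a fibroblast collagen, had counts of 15.7, 13.4 and 20.2 in LNCaP95 at 500 nM and 4.40, 14.9 and 8.35 in LNCaP95 with DMSO, and 119, 169.9 and 137 in LNCaP at 500 nM and 17.3, 17.1 and 18 in LNCaP with DMSO. The groups overlapped in LNCaP95 and were apart in LNCaP, and the effects were 0.89 in LNCaP95 and 2.94 in LNCaP (interaction -2.05 ± 0.48, adjusted p = 0.00363), and CD68, a macrophage marker, had counts of 14.8, 14.4 and 4.75 in LNCaP95 at 500 nM and 14.1, 8.61 and 21.3 in LNCaP95 with DMSO, and 74.9, 63.4 and 77.0 in LNCaP at 500 nM and 19.6, 27.5 and 11.0 in LNCaP with DMSO. In LNCaP95 the groups overlapped, in LNCaP they were apart, and the effects were -0.40 in LNCaP95 and 1.92 in LNCaP (interaction -2.32 ± 0.61, adjusted p = 0.00792). The summed level of 8 fibroblast and muscle markers ran from 1664 to 2191 in LNCaP95 at 500 nM and 2061 to 2460 in LNCaP95 with DMSO, and from 631 to 872 in LNCaP at 500 nM and 475 to 516 in LNCaP with DMSO. The summed level of 6 blood cell markers ran from 71.3 to 155 in LNCaP95 at 500 nM and 88.8 to 110.4 in LNCaP95 with DMSO, and from 65.8 to 81.2 in LNCaP at 500 nM and 12 to 30.3 in LNCaP with DMSO. PECAM1, of endothelial cells, and DES, of muscle, were at 0 in every library. PTPRC, of white blood cells, was at 0 in LNCaP and averaged 95.8 at 500 nM and 86.25 with DMSO in LNCaP95. Other markers of these lists were expressed in 1 line. VWF, of endothelial cells, averaged 355 at 500 nM and 251 with DMSO in LNCaP, against 6.65 and 7.85 in LNCaP95. LUM, of fibroblasts, averaged 1025 at 500 nM and 1333 with DMSO in LNCaP95, against 3.30 and 2.56 in LNCaP. The part of these markers in the results was not tested.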

How the data were processed

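Poly(A)-selected RNA was read with a directional kit as paired ends, per the labels' protocols. The authors deposited 1 table for the series, whose signal values are gene counts divided by a size factor per library. Per the submitters' processing notes, STAR 2.3.1z4, featureCounts and DESeq were used, with the genome build hg19. The sources used here give no strand setting for the counting. Dividing by the value of 1 read gave whole reads in 27 of 27 libraries (100% of values within 1e-06), and the table had 0 columns of no sample.

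The interaction was tested in limma 3.58.1 (R 4.3.3) as a contrast of 4 group means with a trended prior, on log2(value + 1), for genes at 10 or more in at least 3 libraries of each line. P-values were adjusted by Benjamini and Hochberg over all 12058 genes and called under 0.05. All adjusted p-values in the report come from this fit unless another fit is named. The fit was also run on simulated counts in which libraries varied independently and few genes changed. Those counts held no outlying library and no shared deviation of same-numbered libraries, so they do not show how the fit fares here. Alternatives included edgeR 4.0.16 and DESeq2 1.42.0 on the recovered reads. Same-numbered 500 nM and DMSO libraries deviated together in 6 of 6 pairs (correlation of deviations 0.145 to 0.327, against -0.272 to 0.108 for different numbers), so a fit with the replicate number as a block was also made. Deviations from a group's own mean cancel within the group, so positive same-number values pull the different-number values down. The contrast between them is therefore partly fixed in advance.

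Named genes were the 12 largest called interactions each way with a group mean of 50 or more, up to 4 called members with the smallest p of each of 39 gene lists, a fixed panel, and the 8 genes each way with the largest opposite effects. Members and lists were chosen with earlier results of these data known. Some items are not reported here. Genes with near-identical copies (ribosomal proteins, UGT2B, PRSS, tubulin and AKR1C families) have uncertain counts. Promoter windows came from RefSeq on GRCh38.p14, 35116 windows of 27305 genes, matched by symbol to 9151 of the tested genes; their coordinates are not those of the counting. The p-values and intervals cover these libraries only.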

Additional observations from a re-analysis of the deposited data

Results flagged for a closer look

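The drug effect differed between the lines by the test of the difference itself for 5003 genes at 500 nM and for 5386 genes at 100 nM, where the DMSO libraries are the same. At 500 nM 978 genes were called in opposite directions in the lines. The values below are interactions in limma on the log2 scale, LNCaP95 minus LNCaP, for named genes with opposite calls.

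Stress and metabolic genes were called higher in LNCaP95 and lower in LNCaP, with 2.13 for ATF4, 2.69 for ASNS, 2.89 for TRIB3, 3.43 for PCK2, 3.65 for CHAC1, 4.83 for INHBE and 4.97 for NDUFA4L2. KLK3, the androgen-regulated gene of prostate-specific antigen, had 2.56. BCL11B had 4.01, FUT3 4.35, MOV10L1 4.42 and LPO 4.80. The values of INHBE and LPO rest on groups of a few reads, a limit given above for other genes too. Cell cycle genes were called lower in LNCaP95 and higher in LNCaP, with -3.59 for E2F2, -3.53 for CDK1, -3.42 for MCM10, -3.21 for RRM2 and -3.14 for CLSPN. MYB had -3.25, TRDN -3.46, the tubulin gene TUBA3D -3.97 and ABCA1 -1.86. The causes of these differences were not tested.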

How the results depend on the processing

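Over 13 alternatives other than leaving out 1 library, 4589 to 6545 interactions were called, the highest with array weights, and 0 of the named genes' results reversed. Array weights also moved the within-line count of LNCaP to 5786, against 3392; the cause was not tested. The replicate block called 5823 interactions and changed the call of 5 named genes, each gained, among them ACACA, ACLY, SCD and ENO2, and of no other named gene. Leaving out each library in turn gave 4332 to 5951 interactions, 2234 to 3027 of them higher and 2098 to 2924 lower, with 4660 to 6422 genes changed in LNCaP95, 2373 to 4583 in LNCaP and 4567 to 6091 interactions at 100 nM. The highest interaction count came without LNCaP with DMSO replicate 1. The calls shared with the main fit ranged from 4268 to 5000, with the same sign in each. Of 4378 repeats over 176 named genes, 4294 kept their side of the threshold, 53 lost a call and 31 gained one. Of the 163 called genes, 153 were called under every alternative that tested them, and a stricter filter left some named genes untested. With 3 libraries a group, small differences of genes with few reads cannot be resolved.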
